A study of Mus musculus with 14 samples.

Results

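The 8 libraries described here were made from CD11b+Gr1- cells that had been sorted by flow cytometry out of Lewis lung carcinoma (LLC) tumors. The labels name these cells tumor-associated macrophages (TAM), and they are 8 of the 14 mouse libraries of the study; the other 6 (3 WT and 3 p110g-/-) came from 30 mg pieces of whole tumor. LLC is a mouse lung tumor line that was grown in the flanks of C57BL/6 mice for 14 days. The mice were wild type (WT) or p110g-/-, which lack the leukocyte lipid kinase PI3K gamma (gene Pik3cg), and each library used 1000000 sorted cells. The labels number the 4 TAM libraries of each genotype 1 to 4 without saying what a number marks. Here the 4 libraries numbered 1 and 2 (2 WT and 2 p110g-/-, called low-numbered below) were set against the 4 numbered 3 and 4 (2 WT and 2 p110g-/-, called high-numbered), so that genotype was balanced over the 2 number groups.

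This split was chosen on measured values of the same libraries. In earlier results of these data, same-numbered libraries of the 2 genotypes resembled each other, and the share of mitochondrial RNA was larger in the high-numbered libraries. Every difference between low-numbered and high-numbered libraries is therefore a description of these 8 libraries, and no test of it was made. Only the genotype difference, and its dependence on the number group, were tested, since neither was used to make the split. The number group in those fits was still chosen on the same libraries. The p-values do not account for that choice and may be too small. The labels do not tie a library to an animal of its own; p-values here therefore rest on the spread among these libraries, part of which may be technical. Both genotypes are of the same labelled strain, and the sources used here do not give which part of Pik3cg the deletion removes.

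Macrophages are phagocytes of myeloid origin that settle in tumors from circulating monocytes, and in mice they are sorted from a tumor suspension by surface proteins such as CD11b (encoded by Itgam). A solid tumor also holds carcinoma cells, fibroblasts that lay down collagen matrix, vessel cells and lymphocytes, and RNA of any of these can reach a sorted sample. Mitochondria carry their own small genome, whose transcripts are a common measure of how cells came through dissociation and sorting. In bulk samples such as these, more cells of a type and more RNA per cell cannot be told apart.

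The deposited values are gene counts scaled library by library and rounded, and are called normalized counts. They summed to 33248294 to 38153438 per TAM library over 12924 genes. The estimated depth was 40.7, 31.0, 26.8 and 28.3 M reads in genes for WT libraries 1 to 4, and 40.2, 29.9, 24.2 and 19.7 M for p110g-/- libraries 1 to 4. All 4 low-numbered libraries were thus deeper than all 4 high-numbered ones, and 3 reads corresponded to 2.50 to 5.82 normalized counts (counting error only). Pik3cg itself was at 3745, 4477, 3070 and 2748 normalized counts in WT libraries 1 to 4 and at 2203, 2211, 1210 and 1401 in p110g-/- libraries 1 to 4, so the genotypes did not overlap. Differences below are of mean log2(normalized count + 1), high-numbered minus low-numbered, with a standard error (SE) that has genotype as covariate and n = 4 and 4. A gene is said to be counted as higher or lower where the 4 and 4 libraries did not overlap and the difference was at least 1 (2-fold).

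Genes of the sort gate and the macrophage program were high in every library, and several were somewhat lower in the high-numbered ones. Itgam, the CD11b chain, was at 96331, 75816, 53793 and 46729 in WT libraries 1 to 4 and at 81995, 54133, 51006 and 48327 in p110g-/-. The high-numbered libraries all lay below the low-numbered ones, by −0.60 ± 0.18 on the log2 scale (−0.36 without both libraries numbered 1). Csf1r, the receptor for the macrophage growth factor CSF1, was at 50220, 62401, 44813 and 43116 in WT and at 65757, 70505, 45501 and 44752 in p110g-/-, again without overlap (−0.47 ± 0.09). Ptprc, which encodes the leukocyte protein CD45, differed by −0.46 ± 0.10, and its high-numbered libraries also lay below the low-numbered ones. Adgre1, which encodes the macrophage protein F4/80, ranged from 7876 to 15414 and overlapped between the number groups. The whole tumors held far less of these transcripts, with Csf1r at 6245 to 9923 normalized counts and Itgam at 8992 to 12377. Of the Gr1 genes, Ly6g is not analysed here, and Ly6c1 and Ly6c2 are near-identical copies whose counts are uncertain. These macrophage markers were thus present at high levels in all 8 libraries.

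Across all 12475 genes tested, the difference between the number groups was lopsided. Of these, 1016 genes (8.14%) were counted as higher in the high-numbered libraries and 15 (0.120%) as lower. Without the 2-fold minimum, 2079 genes (16.7%) lay above in all 4 high-numbered libraries and 1401 (11.2%) lay below. The median difference of all genes was 0.00, with quartiles of −0.20 and 0.28, so the lower genes were many but the sizes were small (median −0.33 for the 1401). The smallest differences counted were 1.00 and −1.01, and the nearest values outside were 0.99 and −0.97. A further 258 genes with a difference of at least 1, and 35 of −1 or less, overlapped between the groups and were not counted. These shares are descriptions, since the split was chosen on the same libraries.

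The split was not a step between 2 uniform groups. The libraries numbered 1 stood apart, the libraries numbered 2 lay between, and those numbered 3 and 4 were alike. Among the 1016 genes counted as higher, the median level in WT library 1 was 10.4% of the mean of WT libraries 3 and 4 (quartiles 5.64% and 22.1%). It was 43.8% in WT library 2, 10.6% in p110g-/- library 1 and 26.7% in p110g-/- library 2. Library 1 was below library 2 in 956 of the 1016 genes in WT, in 873 in p110g-/- and in 842 in both; that library 2 was below libraries 3 and 4 is set by the counting rule. Over all tested genes, 1532 were at least 2-fold higher in WT library 2 than in WT library 1 and 490 at least 2-fold lower, whereas WT libraries 3 and 4 differed by that much in 57 and 52 genes. The same counts in p110g-/- were 1046 and 480 between libraries 1 and 2, and 148 and 102 between libraries 3 and 4. In these terms 52.2% of the variation of all tested genes over the 8 libraries lay between the number groups, 25.5% between libraries 1 and 2, 1.92% between libraries 3 and 4, and 10.5% between genotypes. Leaving out both libraries numbered 1 gave 949 genes counted as higher, of which 851 were among the 1016. The sizes depended more on them: of 110 named genes, 45 moved by more than the spread between libraries without both libraries numbered 1, and 43 of these moved toward 0.

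**Figure D1:**
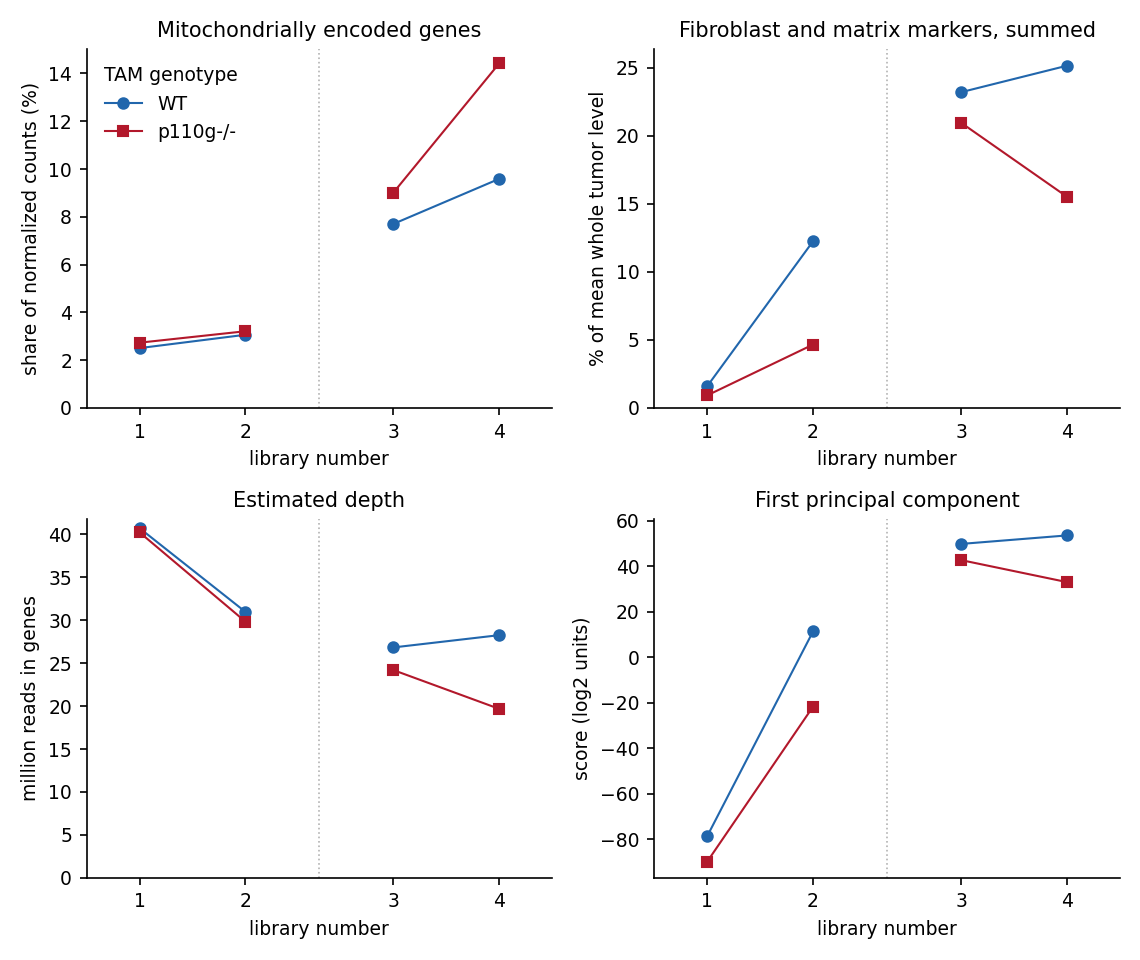
Values of the 8 TAM libraries by library number (horizontal axes), WT as blue circles and p110g-/- as red squares, with lines joining libraries 1 and 2 and libraries 3 and 4 of a genotype. The panels show the mitochondrially encoded share of normalized counts (2.51% to 3.21% in libraries 1 and 2, 7.70% to 14.4% in libraries 3 and 4), the summed fibroblast and matrix markers as a percent of the mean whole tumor level of the same genotype, the estimated depth, and the score on the first principal component of all tested genes (72.0% of the variance).

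Among the gene lists, fibroblast and matrix markers had the largest median difference, 3.02, followed by pericyte and smooth muscle markers, 1.88. Without both libraries numbered 1 these medians were 1.47 and 1.62, below the 1.71 of the mitochondrially encoded genes, and Col6a3, Col6a1 and Col5a2 were at 1.43, 1.60 and 1.71. Of the 22 fibroblast and matrix markers, 18 were counted as higher in the high-numbered libraries, beside 8.14% of all genes, and none as lower. The median over all genes was 0.00. Col6a3, a chain of the matrix protein collagen VI, was at 68, 1789, 3559 and 3260 normalized counts in WT libraries 1 to 4 and at 18, 611, 2839 and 1943 in p110g-/- (difference 3.86 ± 1.56). Every high-numbered library exceeded every low-numbered one, but WT library 2 was at 1789 and p110g-/- library 4 at 1943, so the groups nearly touched. Col3a1, a fibrillar collagen of connective tissue, reached 43787 in WT library 4 and was at 458 in p110g-/- library 1 (3.35). Col6a1 (3.46) and Col5a2 (3.47), which encode further collagen chains, and Pdgfra (3.24), a growth factor receptor of fibroblasts, followed the same order of libraries. The 4 members not counted were Fbn1, at 3.53 with overlapping groups, and Mmp2 (0.68), Timp1 (−0.01) and Loxl1 (1.57). Timp1, an inhibitor of matrix proteases that other cells also make, was highest in the libraries numbered 1, at 1407 and 1600.

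Summed over the list, fibroblast and matrix markers in WT TAM libraries 1 to 4 came to 1.61%, 12.2%, 23.2% and 25.1% of their mean level in WT whole tumor. In p110g-/- libraries 1 to 4 they came to 0.927%, 4.66%, 21.0% and 15.5% of the p110g-/- whole tumor level. The 2 tables may have been scaled separately, so these percentages place the libraries in order rather than measure a cell fraction. The lowest high-numbered library was at 15.5% and the highest low-numbered one at 12.2%.

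Pericyte and smooth muscle markers had a median difference of 1.88, with 5 of 8 counted as higher, beside 8.14% of all genes. Rgs5, a signaling regulator typical of pericytes, was at 5, 38, 211 and 282 in WT and at 11, 32, 157 and 260 in p110g-/- (3.68 ± 0.73). Both low-numbered pairs were at or below 38 and both high-numbered pairs at or above 157. Notch3 (2.94), a receptor of vessel wall cells, Mcam (2.86) and Myl9 (2.17) were also counted, the last at no more than 17 normalized counts in any library. Notch3 and Myl9 stayed under 10 in every low-numbered library. They passed the filter (10 in at least 4 libraries) only through the high-numbered ones, so their place in the count and median depended on being high there. Rgs5 and Mcam were at 5 in WT library 1, so they too passed only with the high-numbered libraries. Cspg4, which encodes the NG2 proteoglycan, overlapped (0.58) and was at 431 in WT library 1 against 1868 to 3462 in the other 7.

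Endothelial markers split by gene. Egfl7, a matrix protein secreted by endothelium, was at 3, 44, 185 and 224 in WT and at 8, 30, 132 and 114 in p110g-/- (3.41 ± 0.91, and 2.09 without both libraries numbered 1), without overlap. Plvap (2.67), Esam (1.89) and Tie1 (1.51), all genes of vessel lining cells, were counted as well. Thus 4 of 10 were counted, beside 8.14% of all genes. All 4 were under 10 in some low-numbered library and passed the filter (10 in at least 4 libraries) only with the high-numbered ones. Their place in the count and median depended on being high there. Over the 10 members tested the median difference was 0.05, and Pecam1 (−0.52), Kdr (−0.35), Vwf (−0.38) and Flt1 (−0.07) overlapped between the number groups.

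Carcinoma epithelium markers also split by gene, with 4 of the 8 tested positive and 4 negative (median 1.07). The keratin Krt8 was at 76, 499, 1573 and 1648 in WT and at 46, 197, 1569 and 1194 in p110g-/- (3.43 ± 0.79), and its partner Krt18 differed by 3.06 ± 0.78. Hmga2, a chromatin protein of embryonic and tumor cells, was at 276, 1097, 3138 and 2945 in WT and at 310, 712, 2490 and 1881 in p110g-/- (2.33). Sox9, a transcription factor of progenitor cells, was the fourth member counted (2.73). Krt8, Krt18, Hmga2 and Sox9 were at 2.24, 1.87, 1.54 and 1.61 without both libraries numbered 1. The other 4 of the 8 tested, Krt7, Epcam, Cdh1 and Spp1, had negative differences and overlapped. Cdh1 and Epcam were lower in whole tumor than in TAM (log2 −3.09 and −1.29), whereas Krt8 and Krt18 were higher there (2.90 and 2.95).

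**Figure D2:**
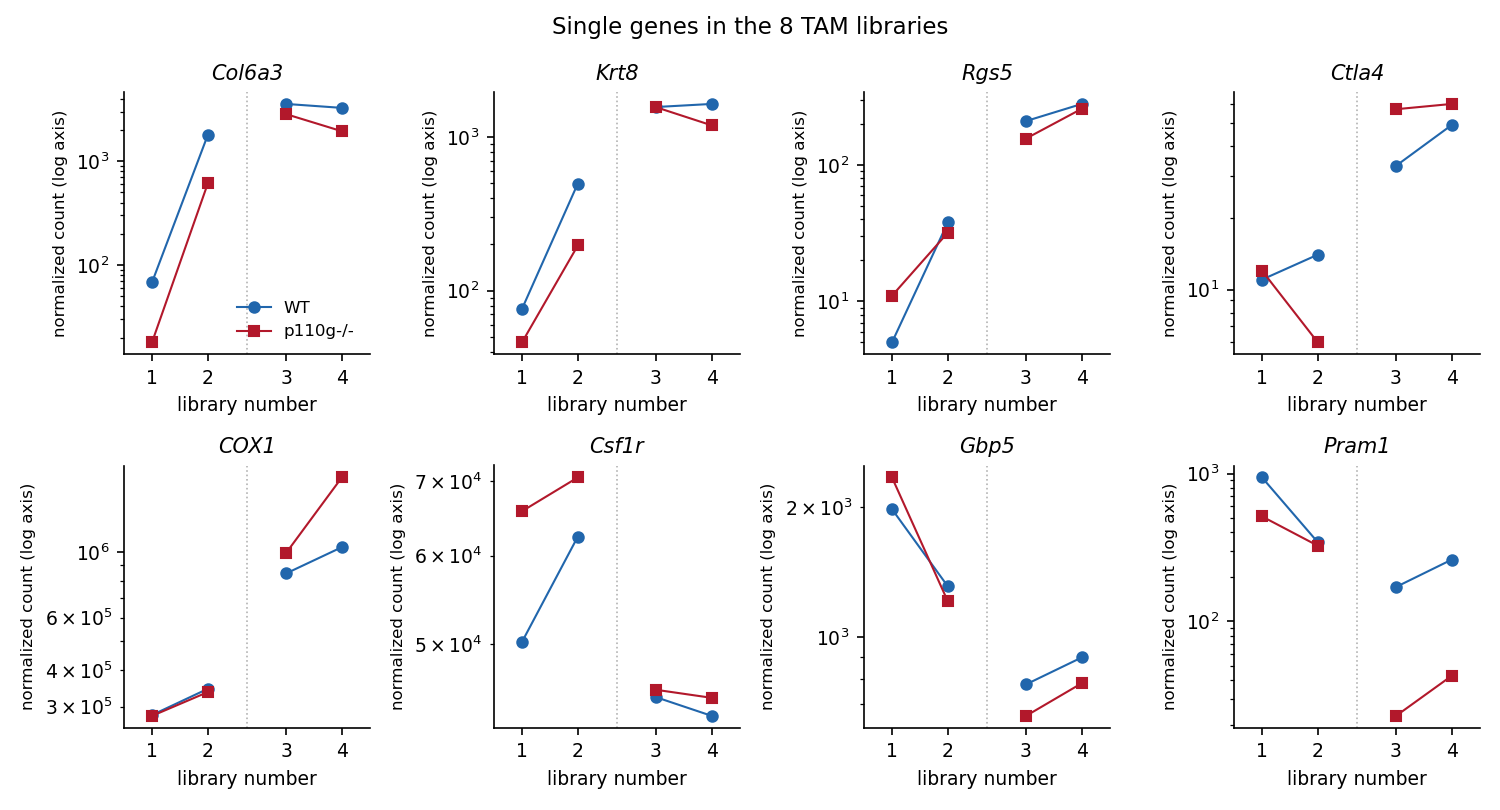
Normalized counts (log vertical axes, each with its own range) of 8 genes by library number, WT as blue circles and p110g-/- as red squares. Col6a3, Krt8, Rgs5, Ctla4 and COX1 were higher in all 4 libraries numbered 3 and 4, and Csf1r, Gbp5 and Pram1 lower in all 4.

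The 15 genes of largest difference among the 671 counted as higher with a mean of at least 100 in a number group ranged from 3.68 to 4.60. Cyr61, a matrix-associated signaling protein, led them with 26, 175, 425 and 384 normalized counts in WT and 3, 71, 1800 and 1593 in p110g-/- (4.60 ± 1.44). All 4 high-numbered libraries lay above all 4 low-numbered ones, and the 2 of p110g-/- were the highest. Tm4sf1, a membrane protein of endothelial and carcinoma cells, was at 38, 318, 1503 and 1538 in WT and at 19, 138, 1061 and 965 in p110g-/- (4.02 ± 0.93). Lama5, a laminin chain of basement membranes, differed by 3.74 ± 1.32, and Ogn, a small proteoglycan of connective tissue, by 3.76 ± 1.38. The others were Cthrc1, Itga7, Adcyap1r1, Slc38a4, Add2, Disp2, Cfap69, Steap1, Trpa1, Col6a3 and Rgs5. Without both libraries numbered 1 the differences of Cyr61, Tm4sf1, Lama5 and Ogn were 2.88, 2.56, 1.69 and 1.72. All 15 were higher in whole tumor than in TAM, by 1.35 (Cthrc1) to 3.36 (Ogn) on the log2 scale.

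The whole tumor libraries, which were not used to make the split, show which of these genes were abundant in the unsorted tumor. Of 833 genes at least 4-fold higher in whole tumor than in TAM, 676 (81.2%) were counted as higher in the high-numbered TAM libraries, and the median difference was 2.46 (quartiles 1.76 and 3.03). Of 10716 genes within 4-fold, 336 (3.14%) were counted and the median was 0.00. Of 926 genes at least 4-fold lower in whole tumor, 4 were counted as higher and 7 as lower, and the median was −0.41 (quartiles −0.59 and −0.23). The first of these classes held 66.5% of all genes counted as higher. It was alike in the 2 genotypes, with a median of 2.28 in WT and 2.62 in p110g-/-. Without both libraries numbered 1 its median was 1.60. Some genes of this first class, such as Notch3 and Esam, passed the filter only with the high-numbered libraries. The share counted and the median of the class therefore depended in part on the filter. With no filter on low values the median of this class was 2.24. The levels of TAM enter both axes of this comparison, and the 2 tables may differ in scaling, so it is given without a test.

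**Figure D3:**
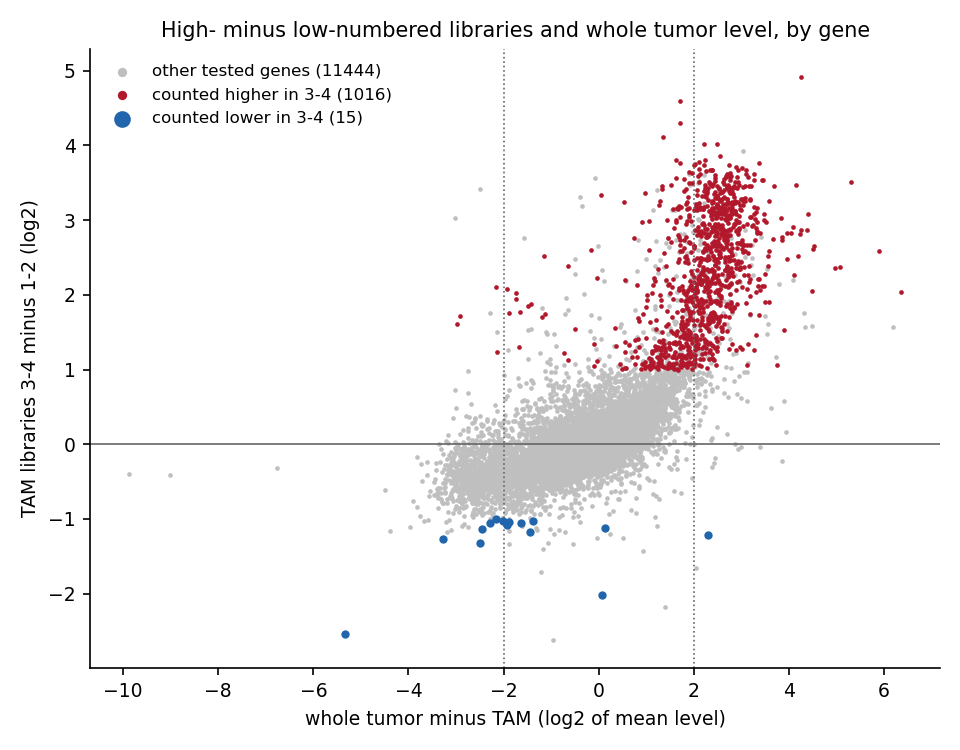
Each point is a tested gene, placed by its log2 mean whole tumor level minus its log2 mean TAM level (horizontal) and by its difference between the TAM libraries numbered 3 and 4 and those numbered 1 and 2 (vertical, log2). Genes counted as higher (1016, red) lay mostly (676) right of the dotted line at 4-fold over TAM, and of the genes counted as lower (15, blue) 7 lay left of the line at 4-fold under TAM.

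Mitochondrially encoded genes set the number groups apart in another way. All 13, which encode subunits of the respiratory chain and of the ATP synthase, were counted as higher in the high-numbered libraries, with a median difference of 1.77. COX1, a subunit of cytochrome c oxidase, was at 281255, 344947, 845686 and 1037595 in WT libraries 1 to 4 and at 279364, 336272, 990790 and 1785000 in p110g-/- (1.85 ± 0.25). Here libraries 1 and 2 were close to each other, at 30.5% and 34.4% of libraries 3 and 4 in WT and 23.3% and 25.8% in p110g-/- (list medians), unlike the stromal genes. The share of all 13 genes was 2.51%, 3.06%, 7.70% and 9.59% in WT libraries 1 to 4 and 2.73%, 3.21%, 9.01% and 14.4% in p110g-/-. The 6 whole tumor libraries held 2.49% to 3.32%, so the low-numbered TAM libraries resembled whole tumor in this share and the high-numbered ones exceeded it. These shares were among the values that led to the split, and the part of RNA quality or cell handling in them was not tested.

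Nuclear genes of the same complexes differed far less. Nuclear oxidative phosphorylation genes had a median difference of 0.25, with 27 of 28 positive, beside 50.3% of all tested genes. Of the 28, 14 lay above in all 4 high-numbered libraries, beside 16.7% of all tested genes, and none was counted at 2-fold. The list median was 0.14 without both libraries numbered 1. Ndufb2, a subunit of respiratory complex I, was at 725, 834, 1371 and 1652 in WT and at 734, 875, 1242 and 1444 in p110g-/- (0.85 ± 0.12). Cytosolic ribosomal proteins had a median of 0.41, with 23 of 23 positive and 16 above without overlap, beside the same shares of all genes. Rps18 of the small ribosomal subunit was at 27455, 24718, 47607 and 52530 in WT and at 24707, 23809, 41022 and 43041 in p110g-/- (0.87 ± 0.06). Ribosomal levels in libraries 1 and 2 were 71.9% and 71.1% of libraries 3 and 4 in WT and 74.7% and 81.3% in p110g-/-. Like the mitochondrial genes, they did not follow the large gap between libraries 1 and 2 seen in fibroblast genes. Hspe1, the small partner of the mitochondrial chaperonin, was also above in all high-numbered libraries (0.88 ± 0.05).

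T cell transcripts were scarce and higher in the high-numbered libraries. All 12 tested T cell markers had a positive difference (median 1.02), and 5 were counted. Ctla4, an inhibitory receptor of T cells, was at 11, 14, 33 and 49 normalized counts in WT and at 12, 6, 57 and 60 in p110g-/- (2.13 ± 0.34). Cd3g, a chain of the T cell receptor complex, reached 33 at most, and several of its low-numbered values were at or near the level of 3 reads. It reached the filter minimum of 10 only in the high-numbered libraries, so it was tested only through them. Icos (1.75), Lck (1.16) and Thy1 (1.90) were the other members counted, and Thy1 is also on the fibroblast list. Ctla4 was at 6 in p110g-/- library 2 and Icos at 8 in WT library 1. Both thus passed the filter (10 in at least 4 libraries) only with the high-numbered ones. The list's median and its positive and counted members depend in part on this filter. Summed, the T cell markers were at 203 to 230 in the low-numbered libraries and 388 to 578 in the high-numbered ones. Among cytotoxic and NK cell markers the median was 0.73, and Il2rb (1.62) and Nkg7 (1.04) were counted of 10 tested. Nkg7 was at 5 in p110g-/- library 2 and also passed the filter only with the high-numbered libraries. Summed, that list overlapped between the number groups, at 1162, 775, 968 and 1219 in WT libraries 1 to 4. In p110g-/- libraries 1 to 4 the sums were 1358, 489, 797 and 953. Clec9a (1.42), a receptor of cross-presenting dendritic cells, and Fscn1 (1.39), an actin bundling protein, were counted among 15 dendritic cell markers, whose median was −0.12. Over all genes 8.14% were counted as higher, so these few members say nothing about the dendritic cell list. Neutrophil markers overlapped apart from Csf3r, which was lower in all high-numbered libraries (−0.73), and B and plasma cell markers overlapped without exception among the 6 tested.

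**Figure D4:**
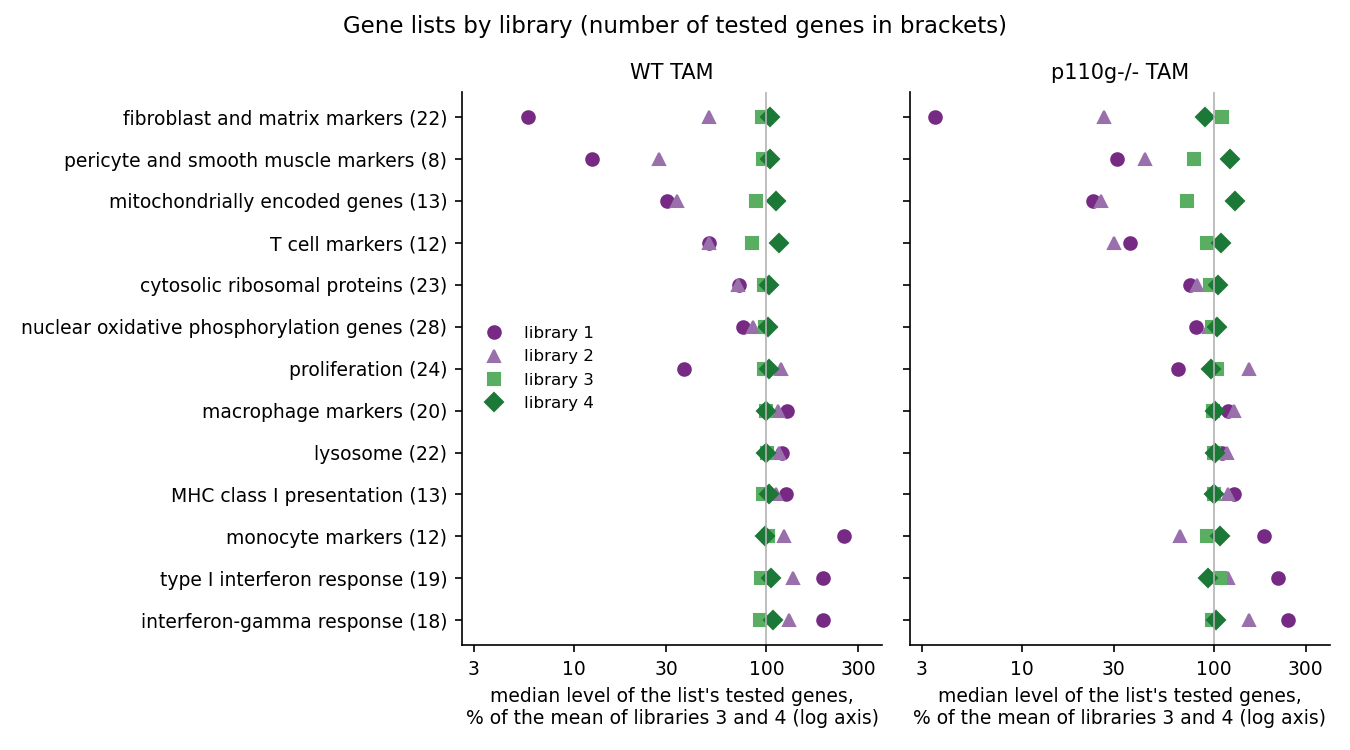
Median level of the tested genes of 13 lists in each library, as a percent of the mean of libraries 3 and 4 of the same genotype (log axis), WT on the left and p110g-/- on the right. Fibroblast markers in library 1 were at 5.72% (WT) and 3.51% (p110g-/-) of libraries 3 and 4, mitochondrial genes at 30.5% and 23.3%, and interferon-gamma response genes at 196% and 244%.

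Macrophage markers were lower by small amounts. Of the 20 macrophage markers, 19 had a negative difference, with a median of −0.24. Of the 20, 5 lay below in all high-numbered libraries, beside 11.2% of all genes, and none reached 2-fold. Maf, a transcription factor expressed in macrophages, was at 11307, 10207, 7053 and 6919 in WT and at 9365, 8466, 5086 and 5133 in p110g-/- (−0.71 ± 0.06). Cd68, a lysosomal protein of phagocytes, differed by −0.26, also without overlap. Cd163, a hemoglobin scavenger receptor, had the largest difference of the list (−0.96 ± 0.58, and −0.26 without both libraries numbered 1) but overlapped, with 1249 in WT library 1 and 228 in WT library 4. Of the 1401 genes that lay below in all high-numbered libraries, 90.5% were lower in whole tumor than in TAM, against 54.0% of all tested genes.

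Monocyte markers depended on the libraries numbered 1. Their median difference was −0.62, and 0.00 without both libraries numbered 1. Relative to libraries 3 and 4, their median level was 252% in WT library 1 and 123% in WT library 2, and 183% and 66.5% in p110g-/- libraries 1 and 2. Ccr2, the chemokine receptor that brings monocytes into tissue, was at 63264, 36060, 31062 and 29026 in WT and at 69414, 40127, 20781 and 23457 in p110g-/- (−0.96), the one member below without overlap. Plac8 (−1.15) and Chil3 (−1.25), both expressed by monocytes, were highest in the libraries numbered 1 and overlapped among the rest. Chil3 was at 1404 and 734 in the libraries numbered 1 against 104 to 560 in the other 6. Ly6c1 went the other way, at 46, 109, 315 and 393 in WT and 27, 58, 288 and 169 in p110g-/- (2.37 ± 0.41). It was 2.96 higher in whole tumor than in TAM on the log2 scale, and besides monocytes it is a gene of endothelium. Ly6c2, the copy typical of monocytes, overlapped (−0.54).

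Interferon-gamma response genes were lower in the high-numbered libraries as a list. All 18 tested had a negative difference (median −0.83), and 8 lay below without overlap, beside 11.2% of all genes. Gbp4 and Gbp5 were counted at 2-fold, beside 0.120% of all genes. Gbp5, a guanylate-binding protein of host defense, was at 1975, 1310, 778 and 898 in WT and at 2338, 1210, 658 and 783 in p110g-/- (−1.09 ± 0.27). Gbp4 was at 1859, 808, 494 and 707 in WT and at 2034, 957, 537 and 608 in p110g-/- (−1.17 ± 0.39). In both genes library 1 was highest and library 2 intermediate, in both genotypes. Without both libraries numbered 1, Gbp4 and Gbp5 were at −0.60 and −0.70, under 2-fold, and the list median was −0.48. Irf1, a transcription factor of the pathway, differed by −0.85 and the chemokine Cxcl10 by −0.86. Median levels were 196% and 132% of libraries 3 and 4 in WT libraries 1 and 2, and 244% and 152% in p110g-/-.

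Type I interferon response genes had a similar median, −0.72, with 18 of 19 negative, and no member separated the number groups over both genotypes. The median genotype difference of this list was −1.62 (p110g-/- minus WT). Such a gap makes the number groups overlap unless they differ by even more, so no conclusion is drawn from the overlap. Summed, the list was at 73399, 52776, 37536 and 42450 in WT libraries 1 to 4 and at 34642, 20625, 18035 and 16304 in p110g-/-. Within each genotype both low-numbered libraries were above both high-numbered ones, and the list median was −0.34 without both libraries numbered 1. Among antigen presentation genes of MHC class I, 11 of 13 were negative (median −0.27) and 5 lay below without overlap, such as the peptide transporter gene Tap1 (−0.56 ± 0.08) and H2-K1 (−0.44), whose counts may be shared with related H2 genes. Lysosome genes had a median of −0.16 and 9 of 22 below, led by the protease gene Ctsc (−0.59 ± 0.11). Of the 9 class I PI3K subunits, Pik3cd (−0.70 ± 0.12), the other leukocyte catalytic subunit, Pik3r5 (−0.35) and Pik3r6 (−0.52), the regulatory partners of PI3K gamma, lay below without overlap. Over all genes, 11.2% lay below in this way. Pik3cg itself differed by −0.63 ± 0.10 and was lower in the high-numbered libraries within each genotype.

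The 9 genes counted as lower with a mean of at least 100 in a number group were Pram1, Arhgef37, Hrh2, Gbp4, Gbp5, Fam117a, Notch4, Gbp9 and Foxred2. Pram1, an adaptor protein of myeloid cells, was at 941, 343, 171 and 262 in WT and at 513, 325, 23 and 43 in p110g-/- (−2.54 ± 0.66). The low-numbered libraries were all at or above 325 and the high-numbered ones at or below 262. Hrh2, a histamine receptor, was at 490, 539, 338 and 357 in WT and at 547, 488, 140 and 122 in p110g-/- (−1.27 ± 0.32). Notch4, a receptor of the Notch family, was at 497, 474, 317 and 352 in WT and at 1361, 769, 392 and 324 in p110g-/- (−1.03 ± 0.30). In Pram1, Hrh2 and Notch4 the separation was wider in p110g-/- than in WT, and that contrast was tested with the interaction described further on. Gbp9 was the third guanylate-binding protein among the 9 (−1.02 ± 0.26). Arhgef37, Fam117a and Gbp9 were at −0.56, −0.62 and −0.61 without both libraries numbered 1. Celsr1, Lrg1, Inpp5j, Atp9a, Cabyr and Ermap, the other 6 of the 15, stayed under a mean of 100. The count of 15 moved with single libraries: it was 46 without WT library 2 and 65 without p110g-/- library 2. It was 23 without WT library 3, 26 without WT library 4, 23 without p110g-/- library 4 and 6 without p110g-/- library 1.

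Proliferation genes differed between the libraries numbered 1 and 2 more than between the number groups. All 24 had a positive difference (median 0.31), yet none separated the number groups. Their median level relative to libraries 3 and 4 was 37.4% in WT library 1 and 119% in WT library 2, and 64.8% and 152% in p110g-/- libraries 1 and 2. Rrm2, a subunit of the enzyme that makes deoxynucleotides, was at 503, 2248, 1965 and 1996 in WT and at 993, 2591, 2030 and 1763 in p110g-/-. The libraries numbered 1 were lowest and the libraries numbered 2 highest within each genotype. Without both libraries numbered 1 the list median turned to −0.42.

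The genotype comparison asked what differed between p110g-/- and WT TAM once the number groups were accounted for. With the number group as covariate, limma called 22 genes higher (0.176%) and 33 lower (0.265%) in p110g-/- at an adjusted p below 0.05. Without the covariate limma called 14, all among these 55, and with the library number as a block it called 312 (2.50%), which included all 55. The covariate lowered the SE of the genotype difference to 0.84 times its value without it (median over genes). It was chosen on these libraries, which the p-values with it do not account for. The count moved with single libraries: limma called 1 gene higher and 1 lower without WT library 3, 2 and 1 without WT library 4, and 0 and 1 without p110g-/- library 3 or without p110g-/- library 4. It called 92 and 49 without WT library 1, 22 and 52 without p110g-/- library 1, and 479 and 506 without both. None of the 55 was counted as higher or lower between the number groups, beside 8.14% and 0.120% of all genes. In all 55, however, the genotypes did not overlap within either number group. Such a gap makes the number groups overlap unless they differ by even more, so no conclusion is drawn from this.

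Of the type I interferon response genes, limma called 10 of 19 tested members lower and none higher, beside 0.265% of all genes called lower. These 10 were among the 33 genes called lower, and all 19 were lower in value in each number group. Limma called 2 of the 19, Bst2 and Ifi44, without the covariate, and 18 with the block. That this list falls in p110g-/- TAM was known from earlier results of these data. Oasl1, an interferon-induced antiviral protein, was at 2077, 1805, 1005 and 1182 in WT and at 518, 429, 327 and 264 in p110g-/- (log2 −1.96 ± 0.12 SE, limma adjusted p = 0.00228). The genotypes did not overlap, and within each genotype the low-numbered libraries were higher. Irf7, the transcription factor that amplifies the type I response, fell by 2.08 ± 0.21 on the log2 scale (limma adjusted p = 0.0144). For both Oasl1 and Irf7 the limma adjusted p was 0.0683 without the covariate, so these calls were lost. Ifi44, another interferon-induced gene, fell by 2.81 ± 0.25 (limma adjusted p = 0.0116).

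Pik3cg fell by 1.02 ± 0.10 (log2) given the number group, with a limma adjusted p of 0.0134. Without the covariate its limma adjusted p was 0.299, and the block gave 0.00557. Cfb, a complement factor, fell by 1.41 ± 0.13 (limma adjusted p = 0.013, and 0.088 without the covariate), and Hdac9, a histone deacetylase, by 2.41 ± 0.24 (limma adjusted p = 0.0144). Klrb1b, a lectin-like receptor, was at 543 to 629 in WT and at 1314 to 1832 in p110g-/-, a rise of 1.42 ± 0.11 (limma adjusted p = 0.00935). Cacna1a, a calcium channel subunit, rose by 2.89 ± 0.25 (limma adjusted p = 0.0116) from 18 to 29 normalized counts in WT. Hddc3, a hydrolase, rose by 2.57 ± 0.25 (limma adjusted p = 0.0144). Lyz1 rose by 2.69 ± 0.22 (limma adjusted p = 0.00935), but reads of Lyz1 and the near-identical Lyz2 may have been shared.

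**Figure D5:**
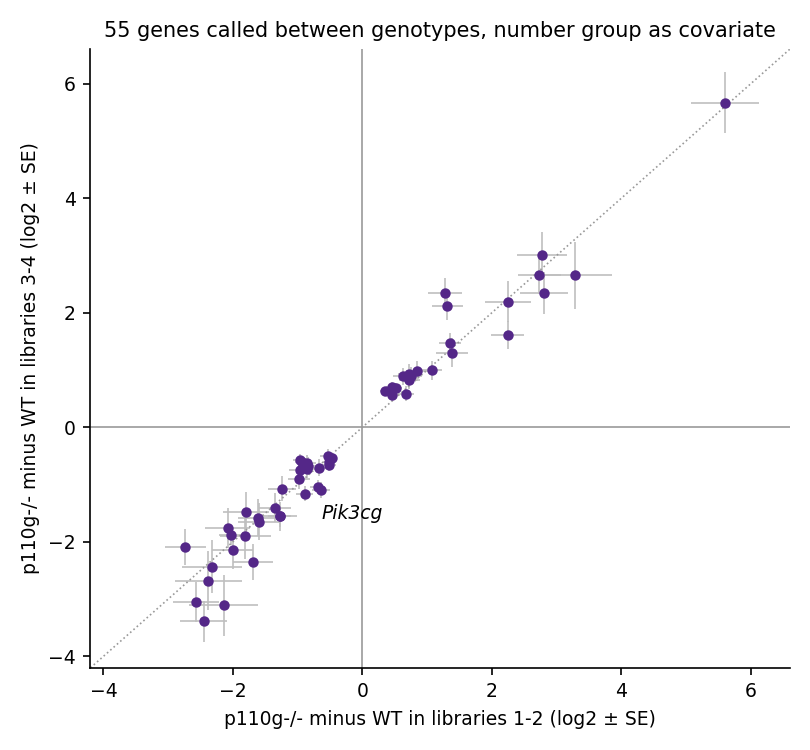
For the 55 genes called between genotypes with the number group as covariate, the log2 difference p110g-/- minus WT in libraries 1 and 2 (horizontal) and in libraries 3 and 4 (vertical), each ± SE. The SE is from the interaction fit of all 8 libraries, with the spread pooled over both number groups. The dotted line marks equal differences; Pik3cg was at −0.89 and −1.16.

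The genotype difference itself was set against the number groups in an interaction test. Limma called 0 genes (0%) at an adjusted p below 0.05, with 332 at an unadjusted p below 0.05, and 0 with the library number as a block, with 1338 at an unadjusted p below 0.05. The type I interferon list had a median genotype difference of −1.61 in libraries 1 and 2 and −1.55 in libraries 3 and 4, and all 19 members were lower in each. The genotype difference within each number group was read from the same fit of all 8 libraries, with the spread pooled over both groups. For it, limma called 0 genes in libraries 1 and 2 (603 at an unadjusted p below 0.05) and 0 in libraries 3 and 4 (940). The interaction test called 5 genes higher and 3 lower without WT library 2, 1 higher without p110g-/- library 2, and 116 higher and 15 lower without both libraries numbered 1.

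Some of the genes nearest to a call in the interaction test are given as values, since none passed, and they lie outside the naming rule. Ets2 had the smallest p among genes with a mean of at least 100 in a genotype and number group. Fosl2 and Hrh2 were not next in order of p. Gpalpp1 (interaction 0.97 ± 0.15), Rab11fip1 (1.34 ± 0.21) and Mtmr10 (1.21 ± 0.195) also had a smaller p than Hrh2. Ets2, a transcription factor, was at 7906, 6238, 4812 and 4576 in WT and at 5446, 5492, 9179 and 11335 in p110g-/-. In WT its level was lower in the high-numbered libraries and in p110g-/- it was higher (interaction 1.48 ± 0.21, limma adjusted p = 0.9997). Fosl2, a member of the AP-1 family of transcription factors, had the same pattern, with 12848, 11777, 9273 and 8538 in WT and 9966, 9022, 14456 and 18514 in p110g-/-. Hrh2, counted above as lower in the high-numbered libraries, had a genotype difference of 0.01 in libraries 1 and 2 and −1.40 in libraries 3 and 4 (interaction −1.41 ± 0.23, limma adjusted p = 0.9997).

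Stromal gene levels also differed in value between the genotypes inside the number groups. Fibroblast and matrix markers had a median p110g-/- minus WT difference of −1.12 in libraries 1 and 2 and −0.45 in libraries 3 and 4, with 19 of 22 lower in each, and limma called none of them given the number group and 4 with the block. Proliferation genes were higher in p110g-/- in 24 of 24 cases in libraries 1 and 2 (median 0.42) and lower in 21 of 24 in libraries 3 and 4 (median −0.17), and none was called. Mitochondrially encoded genes had a median genotype difference of 0.16 in libraries 1 and 2 and 0.57 in libraries 3 and 4, with 0 of 13 called given the number group and 1 with the block. The part of these differences in the genotype calls was not tested.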

How the data were processed

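The submitters' processing notes list Bowtie2, DESeq and build mm9, without versions; the read counter, annotation and scaling formula they used are not given. The authors deposited 1 table per tissue type, both of 12924 genes. As a unit, these deposited values are a score: gene counts scaled by 1 factor per library and rounded, as read from the values. A step finder gave the reads behind them and was tested on simulated data (14 of 14 libraries within 1%). Each deposited table also holds a fraction from 0 to 1 per gene, headed pp, which was not used.

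A gene was tested where at least 4 TAM libraries reached 10 (12475 genes). The planned count model was replaced, since the values are not raw counts, by limma 3.58.1 (R 4.3.3) on log2(value + 1) with a variance prior that follows the mean, two-sided, with Benjamini-Hochberg adjustment over all tested genes. Same-numbered libraries deviated together from their group means (correlations 0.85, 0.47, 0.81 and 0.70), so the number was also fitted as a block. Between libraries 3 and 4, other-numbered pairs were about as close (WT 4 with p110g-/- 3 at 0.78, WT 3 with p110g-/- 4 at 0.70). There the values do not show a pairing by number within the number group. Between libraries 1 and 2, other-numbered pairs were at 0.14 and −0.09. The rule for named genes took the 15 largest differences in each direction among counted genes with a mean of at least 100, up to 4 counted members per list (otherwise 2), the sort gate, Pik3cg and mitochondrial genes, and the 10 called genes of smallest p with a mean of at least 100 per genotype test. The libraries, the 36 gene lists (503 of 576 members in the tables; values of some members are not reported here) and the rule were chosen with earlier results of these data known. Alternatives were another pseudocount, no filter, 3 scalings, other fold minimums, no covariate, the block, and leaving out each library.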

Additional observations from a re-analysis of the deposited data

Results flagged for a closer look

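Among 140 groups of 4 libraries checked over 35 measures (list means, mitochondrial share and depth), 4 held a library whose gap to the nearest other was wider, relative to the group's range, than Dixon's 95% critical value. Chance flags about 1 group in 20. B and plasma cell markers had a mean log2 level of 6.41 in WT library 3, the highest of the 4 libraries numbered 3 and 4, against 5.82 to 5.91 in the others. Heat shock and chaperone genes were at 12.59 in p110g-/- library 2, the highest of the 4 numbered 1 and 2, against 12.51 to 12.52. Cholesterol synthesis genes were at 10.67 in WT library 1, the lowest of the 4 WT libraries, against 11.12 to 11.19. They were at 10.97 in p110g-/- library 4, the lowest of the 4 numbered 3 and 4, against 11.18 to 11.19.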

How the results depend on the processing

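The count of genes higher in the libraries numbered 3 and 4 was 915 to 1360 under other pseudocounts, filters, scalings and a minimum of 0.58, 957 to 1236 with a library left out, and 2079 with no minimum difference. The count of lower genes was 8 with equal totals without mitochondrial genes, 180 with a minimum of 0.58, 1401 with none, and 6 to 65 with a library left out. The median of genes 4-fold over TAM in whole tumor was 1.60 without both libraries numbered 1, an alternative chosen after seeing the data. For genotype given the number group, the higher and lower counts were 9 and 5 without the covariate, 126 and 186 with the replicate block, and 479 and 506 without both libraries numbered 1. The lower count was 50 with equal totals. With a library left out, they were 0 to 92 and 1 to 52. For the interaction the counts were 0 with the block, 116 and 15 without both libraries numbered 1, and 0 to 5 and 0 to 3 with a library left out. The causes were not tested. The block changed no call of the 10 named genotype genes, 4 (Oasl1, Irf7, Cfb and Pik3cg) were not called without the covariate, and leaving out any 1 library numbered 3 or 4 lost 9 of the 10. Scaling moved the median of all genes by −0.04 to 0.07. List medians that changed sign included NF-kB targets (0.01 with equal totals without mitochondrial genes) and, without both libraries numbered 1, dendritic cell markers (0.21), B and plasma cell markers (0.27) and cholesterol synthesis (−0.01). Genes near 3 reads in the libraries numbered 1 have differences limited by depth and pseudocount.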
